A study of Homo sapiens with 4 samples.

Results

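The G1 cyclins CCND1, CCND2, CCND3, CCNE1 and CCNE2 and the cyclin-dependent kinase (CDK) inhibitors CDKN1A, CDKN1B, CDKN1C, CDKN2B and CDKN2C were followed in Hs746T cells after suppression of the receptor tyrosine kinase MET. These 10 genes were taken by name, through the RefSeq accession of each probe, out of 19736 genes with a probe on the array, and 12 probes represented them, with CCNE2 and CDKN1B having a pair each. Hs746T is an established gastric carcinoma cell line that carries both a MET exon skipping mutation and MET amplification. Every condition, the controls included, thus started from a MET-driven line, which was maintained in serum-containing medium. The siRNAs were transfected with Lipofectamine in Opti-MEM, which was later replaced by complete medium. The medium during treatment with DMSO or PHA665752 was not given for the arrays. Total RNA of cells given the vehicle DMSO, the MET inhibitor PHA665752, a scrambled siRNA (sc siRNA) or MET siRNA was hybridised to 1 single-colour Agilent array per condition. RNA of both siRNA conditions was taken 48 h after transfection, and a single MET siRNA sequence, the most effective of those tried in the study, was used. The dose and duration of PHA665752 for the arrays were not given in the sources used here.

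Passage from G1 into S phase is driven by successive waves of cyclin-bound kinase activity. D-type cyclins, whose genes respond to growth factor signalling, bind CDK4 and CDK6, and E-type cyclins, which are targets of E2F transcription factors, bind CDK2. INK4 inhibitors such as CDKN2B (p15) and CDKN2C (p18) block CDK4 and CDK6, whereas the Cip/Kip inhibitors CDKN1A (p21), CDKN1B (p27) and CDKN1C (p57) act mainly on CDK2 complexes and are known for arrest after mitogen withdrawal, differentiation or DNA damage.

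Values are given as relative signals, the processed signal of a probe divided by the 75th percentile signal of its array, and ratios as log2 differences of relative signals. All 4 arrays lay on 1 slide, and from 61.1% (MET siRNA) to 68.2% (sc siRNA) of the probes on an array were well above background. With 1 array per condition no replicate error, p-value or test could be had. The error given with each ratio combines the scanner software's estimates for a single spot on both arrays, averaged over the spots of a probe. It was close to 10.0% of a bright signal and was not made smaller for probes printed 10 times. It is not a standard error and leaves out differences between cultures. A gene was called changed when its ratio passed 2-fold, a log2 ratio of 1. MET itself (A_23_P359245, NM_000245) had relative signals of 224 in DMSO cells against 118 under PHA665752, and 229 in sc siRNA cells against 90.7 under MET siRNA. On the log2 scale MET stood at -0.93 under PHA665752, short of 2-fold, and at -1.33 under its siRNA. These are mRNA levels, and the arrays did not measure the activity of the kinase. The study reported that phosphorylated MET was lowered more by PHA665752 than by the knockdown. It held that differences between the treatments in its gene ontology analysis could come from this and from unintended effects of both agents. Neither was tested here. Of 5 epithelial markers, EPCAM, KRT8, KRT18 and KRT19 were well above background on every array, while CDH1 was dim, at relative signals of 0.0122 to 0.0353, and not above background with MET siRNA. Of 3 gastric markers TFF1 alone had a value on each array and lay between 0.0705 and 0.0906. The mesenchymal markers CDH2 and FN1 were above background throughout, and FN1 stood at 1.07 with DMSO and 4.18 with PHA665752. The leukocyte marker CD3E was not well above background on any array, and PTPRC lay between 0.0273 and 0.0382. Of 2 endothelial markers, CDH5 lay between 0.0740 and 0.0894, but PECAM1 stood at 1.86 with DMSO and 0.356 with PHA665752. The part of FN1 and PECAM1 in the results was not tested.

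With PHA665752 over DMSO, 5 of the 10 genes were past 2-fold, and they did not move as a block. CCND1, CCND3 and CCNE2 were down-regulated, and CCND2 and CDKN1C were up-regulated. Over all 14318 genes with a ratio, 8.03% were lower and 13.1% higher by as much, against 3 and 2 of the 10 genes here. Of all genes past 2-fold, 62.0% were higher, or 42.5% when arrays were scaled to the 50th percentile. All 10 genes were well above background on every array, so none of these ratios is a bound. The median log2 ratio of the 10 genes was -0.14, beside 0.075 over all genes. Among the cyclins 4 of 5 ratios were below 0, and among the inhibitors 4 of 5 were above 0. The exceptions were CCND2 and CDKN1A. Over all genes 45.1% of ratios were below 0 in this pair. With MET siRNA none of the 10 genes passed 2-fold over sc siRNA, beside 2.04% higher and 0.696% lower over all genes. Because RNA came from bulk cultures, fewer cells in a given cycle phase and less RNA per cell cannot be told apart. Effects of PHA665752 through MET and outside MET cannot be told apart on these arrays either.

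**Figure D1:**
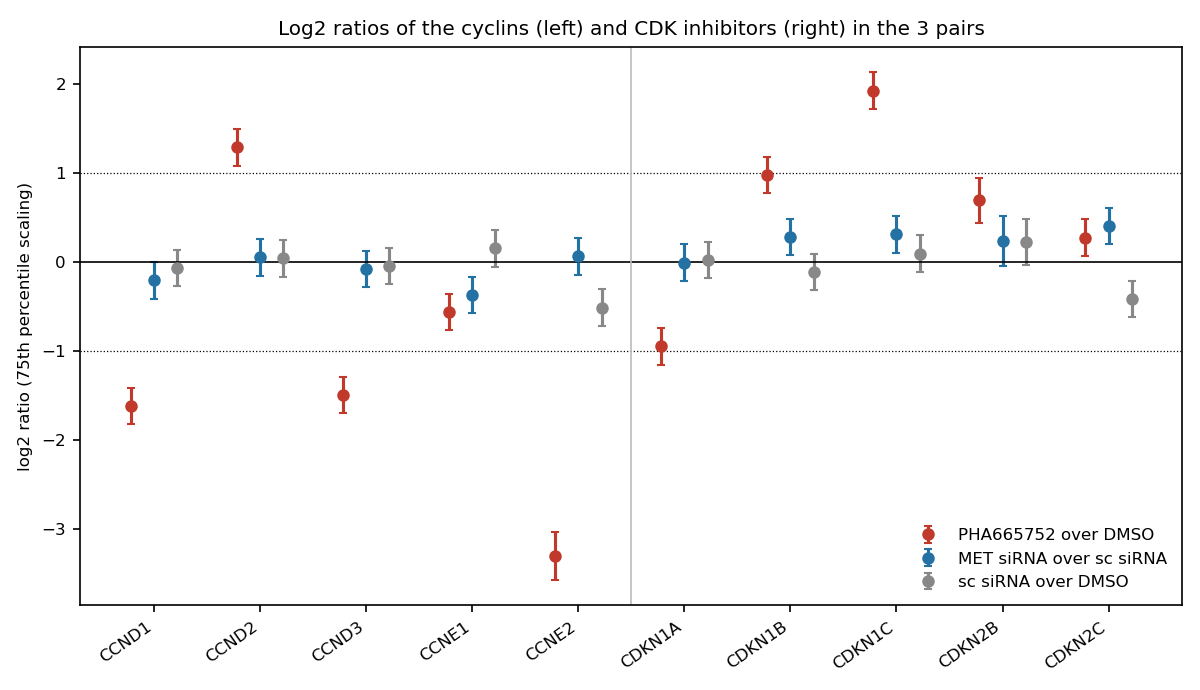
Log2 ratio (vertical axis) of the 5 cyclins on the left and the 5 CDK inhibitors on the right for PHA665752 over DMSO (red), MET siRNA over sc siRNA (blue) and sc siRNA over DMSO (grey), 1 array per condition. Bars are the software's error estimate, and dotted lines mark 2-fold. The red points run from -3.30 for CCNE2 to 1.93 for CDKN1C, whereas every blue point lies between -0.37 and 0.40.

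The D-type cyclins split in direction. CCND1 encodes cyclin D1, the D-type cyclin most closely tied to growth factor and MAP kinase signalling. Its relative signal (A_23_P202837, NM_053056) was 2.29 in DMSO cells against 0.743 under PHA665752, and 2.18 in sc siRNA cells against 1.89 under MET siRNA. The PHA665752 array stood apart from the other 3, which lay close together. CCND1 fell by 1.62 ± 0.20 on the log2 scale with PHA665752, a 3.08-fold decrease that ranked 445 from the lowest of 14318 genes. Under MET siRNA its log2 ratio was -0.21 ± 0.20, and sc siRNA over DMSO gave -0.067.

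The CCND1 probe was printed 10 times on each array, which shows the spot noise directly. The SD between its spots was 0.046 to 0.059 on the log2 scale. Single spots ran from 2.20 to 2.46 with DMSO and from 0.713 to 0.778 with PHA665752. With sc siRNA they ran from 2.098 to 2.301, and with MET siRNA from 1.81 to 2.02. The spot ranges of MET siRNA and sc siRNA thus did not overlap, but spots of an array share its RNA and its scaling and are not replicates of a culture.

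**Figure D2:**
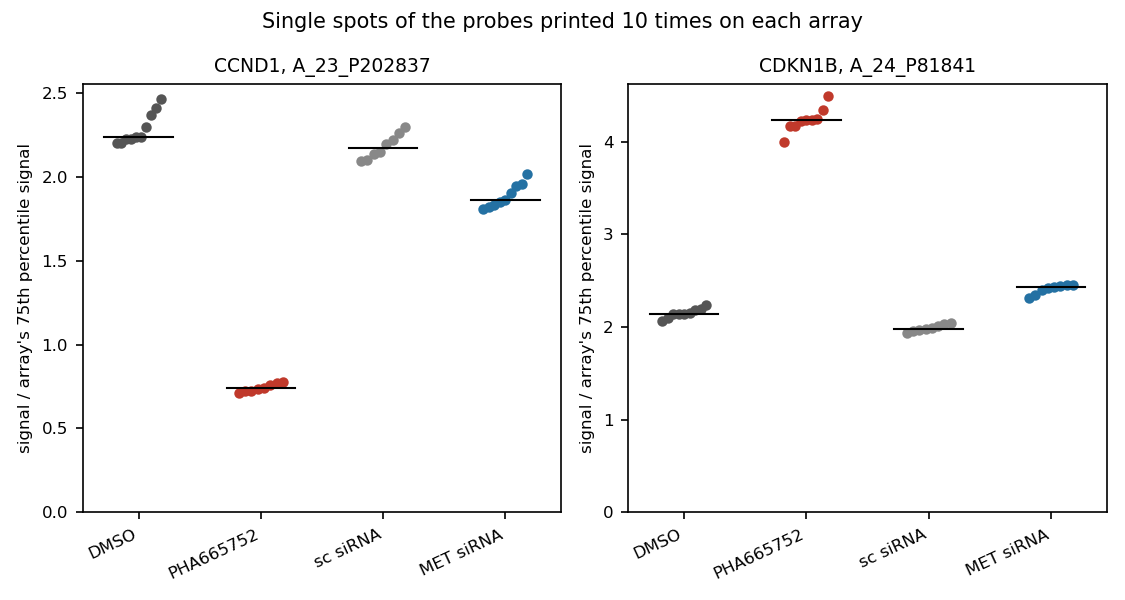
Relative signal (vertical axis, signal divided by the 75th percentile signal of the array) of single spots of the CCND1 and CDKN1B probes on the 4 arrays; points are spots without an outlier mark (8 to 10 per array) and lines their medians. For CCND1 the PHA665752 spots lie at or below 0.778 and all others at or above 1.81, and for CDKN1B the PHA665752 spots lie at or above 4.003 and all others at or below 2.45.

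CCND3, the gene of cyclin D3, followed CCND1. Its relative signal (A_23_P361773, NM_001760) was 1.55 in DMSO cells against 0.551 under PHA665752, and 1.504 in sc siRNA cells against 1.42 under MET siRNA. It fell by 1.50 ± 0.20 on the log2 scale, or 2.82-fold, with PHA665752, and the siRNA ratio was -0.082 ± 0.20. CCND2, the gene of cyclin D2, went the other way. Its relative signal (A_24_P278747, NM_001759) was 0.166 in DMSO cells against 0.406 under PHA665752, and 0.171 in sc siRNA cells against 0.177 under MET siRNA. CCND2 rose by 1.29 ± 0.21 on the log2 scale, or 2.44-fold, with PHA665752, and stood at 0.051 under MET siRNA and 0.040 for sc siRNA over DMSO. With normexp background correction the rise was 0.98, just short of 2-fold. Only the PHA665752 array set CCND2 apart, as it did CCND1 and CCND3.

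Both E-type cyclins were lower with PHA665752, by very different amounts. CCNE2 had the lowest ratio of the 10 genes, ranking 43 from the lowest of all 14318. Its probe A_33_P3217819 (NM_057749) gave relative signals of 0.253 in DMSO cells against 0.0256 under PHA665752, and 0.177 in sc siRNA cells against 0.185 under MET siRNA. CCNE2 fell by 3.30 ± 0.27 on the log2 scale, or 9.87-fold, with PHA665752. Its signal on that array, 21.8, was close to the lowest signal counted as well above background, 12.3, and with normexp, which adds an offset to every signal, the fall was 1.68. The other CCNE2 probe, A_33_P3247022 on the same transcript, had relative signals of 2.28 with DMSO, 0.238 with PHA665752 and 1.73 with sc siRNA. It fell by 3.26 ± 0.21 with PHA665752, so that both probes gave the same size within their errors. Its spot carried an outlier mark with MET siRNA and gave no siRNA ratio.

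CCNE2 was also lower with sc siRNA than with DMSO, with log2 ratios of -0.51 ± 0.21 and -0.401 ± 0.20 at its probes, and MET siRNA did not differ from sc siRNA by more than the error, at 0.065 ± 0.21. CCNE1 (A_23_P209200, NM_001238) stood at 3.95 in DMSO cells against 2.68 under PHA665752, and 4.39 in sc siRNA cells against 3.39 under MET siRNA. PHA665752 gave a log2 ratio of -0.56 ± 0.20 and MET siRNA one of -0.37 ± 0.20, neither past 2-fold. CCNE1 was the cyclin with the lowest siRNA ratio, with 8.74% of all genes lower in that pair. Each treated array was thus below its control for CCNE1, with the sc siRNA array the highest.

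Of the Cip/Kip inhibitors, CDKN1C and CDKN1B were higher and CDKN1A lower with PHA665752. CDKN1C, which encodes p57 and is an imprinted gene expressed mainly from the maternal copy, had the highest ratio of the 10 genes. Its relative signal (A_23_P428129, NM_000076) was 2.56 in DMSO cells against 9.74 under PHA665752, and 2.73 in sc siRNA cells against 3.39 under MET siRNA. CDKN1C rose by 1.93 ± 0.20 on the log2 scale, or 3.80-fold, with PHA665752, which ranked 434 from the highest of 14318 genes. The siRNA ratio was 0.31 ± 0.20, above 0.094 between the controls.

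CDKN1B encodes p27, which accumulates in quiescent cells, largely through slower protein turnover. Its probe A_24_P81841 (NM_004064), printed 10 times, gave 2.15 in DMSO cells against 4.24 under PHA665752, and 1.99 in sc siRNA cells against 2.41 under MET siRNA. The log2 ratio with PHA665752, 0.98 ± 0.20, stopped just short of 2-fold, and that of the other probe, A_23_P204696, was 0.79. With MET siRNA these probes stood at 0.28 ± 0.20 and 0.47 ± 0.20, and between the controls at -0.11 and -0.084. Single spots of A_24_P81841 ran from 2.32 to 2.45 with MET siRNA and from 1.93 to 2.05 with sc siRNA, while DMSO lay between, from 2.07 to 2.24. The PHA665752 array was the highest and the MET siRNA array the second highest at both probes.

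CDKN1A encodes p21, a p53 target that is also induced by strong mitogenic signalling. Its relative signal (A_24_P89457, NM_078467) was 0.169 in DMSO cells against 0.0875 under PHA665752, and 0.172 in sc siRNA cells against 0.171 under MET siRNA. The log2 ratio with PHA665752 was -0.95 ± 0.21, short of 2-fold with the 75th percentile, and -1.20 with the 50th percentile in its place. The ratios of -0.0076 with MET siRNA and 0.021 between the controls were far inside the error. Of the 5 inhibitors among the 10 genes, CDKN1A was the only one below its control with PHA665752.

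The INK4 inhibitors CDKN2C and CDKN2B stayed inside 2-fold in every pair. CDKN2C (A_33_P3292540, NM_078626) had relative signals of 9.37 in DMSO cells against 11.3 under PHA665752, and 7.02 in sc siRNA cells against 9.29 under MET siRNA. Its log2 ratio was 0.27 ± 0.20 with PHA665752, the smallest in size of the 10 genes. With MET siRNA it was 0.404 ± 0.20, the highest of the 10, but sc siRNA lay below DMSO by nearly the same amount, at -0.42 ± 0.20, and the MET siRNA array was level with DMSO. CDKN2B (A_23_P216812, NM_004936), whose product p15 is known as a target of TGF-beta signalling, was dim, with processed signals of 27.3, 37.9, 26.7 and 32.4 in the order DMSO, PHA665752, sc siRNA and MET siRNA. PHA665752 gave a log2 ratio of 0.69 ± 0.26 and MET siRNA one of 0.23 ± 0.28, which is within the error.

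Of the 6 genes with an entry in the RefSeq promoter table (GRCh38.p14), CCND3 had the lowest and CDKN1B the highest ratio with PHA665752, so the 250 bases before their starts are shown, with capitals marking GGGCGG, the Sp1 core motif, on either strand. They lie at chr6:42048689-42048938 on the minus strand for CCND3, the most upstream of its 3 starts in the table, and at chr12:12717118-12717367 on the plus strand for CDKN1B.
CCND3: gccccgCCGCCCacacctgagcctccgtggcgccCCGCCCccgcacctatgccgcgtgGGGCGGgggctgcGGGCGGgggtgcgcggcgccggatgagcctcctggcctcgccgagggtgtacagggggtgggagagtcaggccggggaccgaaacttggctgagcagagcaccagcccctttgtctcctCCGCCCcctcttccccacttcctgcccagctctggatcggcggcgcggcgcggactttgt
CDKN1B: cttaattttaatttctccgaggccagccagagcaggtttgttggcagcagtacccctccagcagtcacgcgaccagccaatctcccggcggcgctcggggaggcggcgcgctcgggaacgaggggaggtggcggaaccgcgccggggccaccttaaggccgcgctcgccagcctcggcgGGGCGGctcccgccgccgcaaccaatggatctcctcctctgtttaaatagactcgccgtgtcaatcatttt

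GGGCGG occurred 5 times in the CCND3 stretch and 1 time in that of CDKN1B. It also occurred 7 times before CCNE1 and 4 times before CDKN1A. In the 300 bases around the other CCND3 starts it was found 4 times and 0 times, so the CCND3 count depends on the start. CDKN2B and CDKN2C had entries too, and CCND1, CCND2, CCNE2 and CDKN1C were not matched. In the 300 bases around the starts, both strands searched with sequences none of which contains another, GGGCGG was found in 8 of the 10 promoters listed for these 6 genes, at least 1 per gene, beside 45% of 35116 promoters. The E2F sequences TTTCCCGC, TTTGGCGC and TTTCGCGC, the AP-1 sequence TGACTCA and the CRE TGACGTCA were found in 0 of 10, beside 1.63%, 0.652%, 0.515%, 4.95% and 1.85% of promoters. The FOXO sequence GTAAACA was found in 1 promoter, of CCND3, and the E-box CACGTG in 2, both of CDKN2C, beside 3.42% and 7.26%. These matches are a description of letters and say nothing of factor binding.

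Knockdown of MET left the 10 genes close to their sc siRNA levels. The ratios ran from -0.37 for CCNE1 to 0.404 for CDKN2C, with a median of 0.058, beside -0.017 over 13644 genes, of which 2.04% were higher and 0.696% lower past 2-fold. All 10 ratios lay within 2 of the error estimates from 0, and 5 lay within 1, though the other CDKN1B probe, at 0.47, was past 2. Between sc siRNA and DMSO none of the 10 genes passed 2-fold either, against 2.89% higher and 1.16% lower of 14271 genes. CCNE2 and CDKN2C were the genes past 2 errors there. The share of all genes within 1 or 2 errors was not counted in either pair. These counts therefore do not set the 10 genes apart from other genes.

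The inhibitor and siRNA pairs share no array. In 9 of the 10 genes their ratios had the same sign, CCNE2 being the exception, beside 69.6% of 13437 genes. The ratio was larger in size with PHA665752 in 9 of the 10 genes, CDKN2C being the exception, beside 80.2% of all genes. The difference between the treatments was -3.37 ± 0.34 for CCNE2, -1.41 ± 0.29 for CCND1 and 1.62 ± 0.29 for CDKN1C on the log2 scale, and -0.19 ± 0.29 for CCNE1, where it was within the error. These differences have no replicate error and were not tested. The same-sign count depends on the processing, because the siRNA ratios are small. CDKN1A is counted with a siRNA ratio of -0.0076, which changed sign in 3 of 9 alternatives. With each array scaled instead to the median signal of the probes above its background, every siRNA ratio moved down. The all-gene median moved with them, from -0.017 to -0.31. Only CDKN2C, at 0.103, and CDKN1C, at 0.0081, then stayed above 0. The array medians in that scaling rest on different probes, as 61.1% were well above background with MET siRNA and 68.2% with sc siRNA. Relative to all genes the median of the 10 genes was 0.075 higher with the 75th percentile and 0.0705 higher with that scaling.

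**Figure D3:**
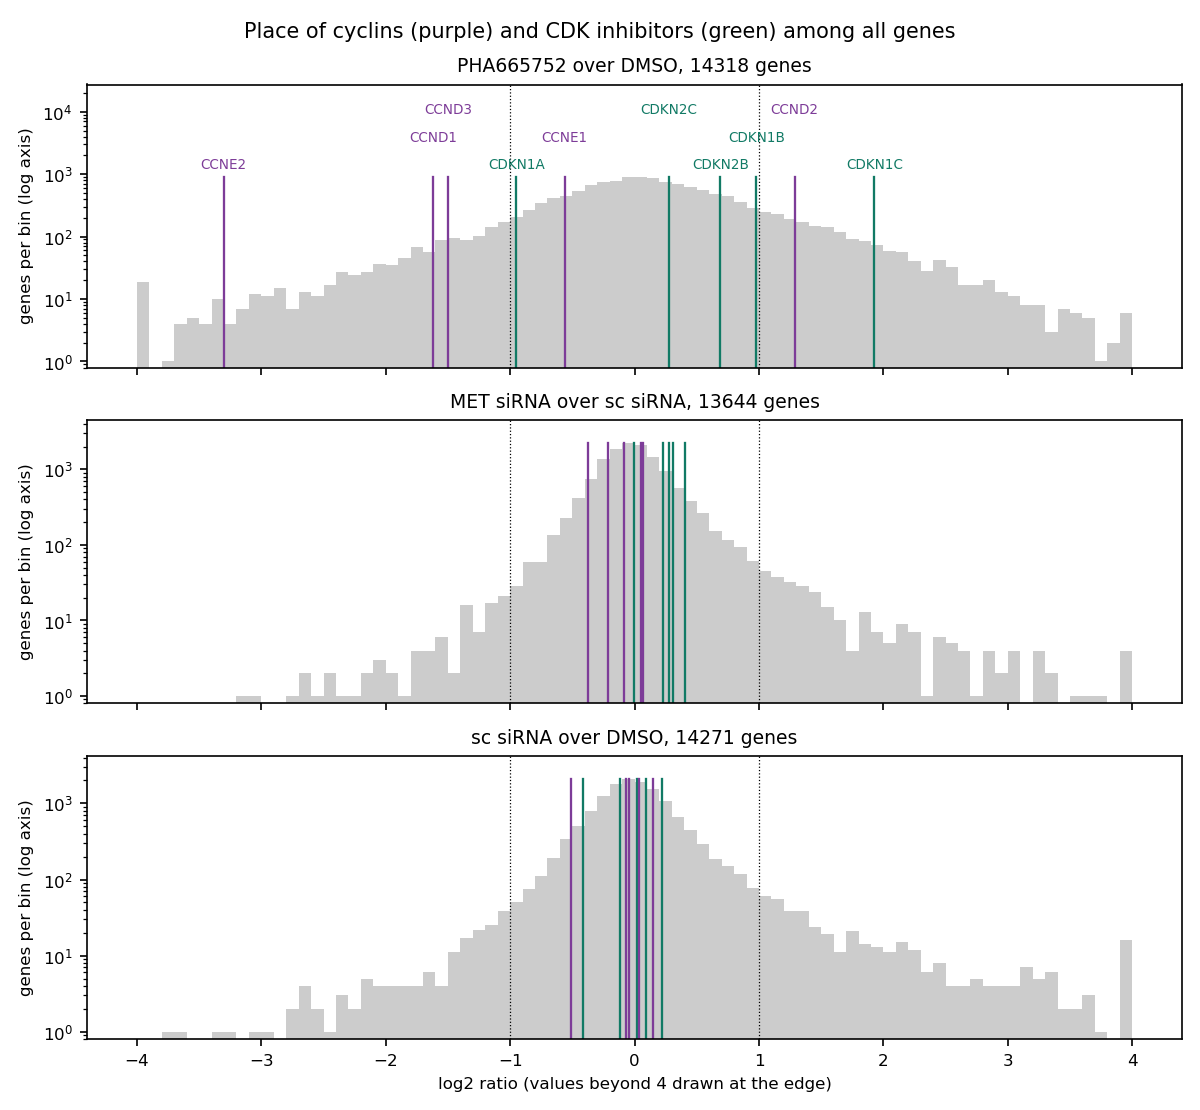
Number of genes per bin of 0.1 (vertical log axis) by log2 ratio (horizontal axis) for the 3 pairs, with cyclins in purple and CDK inhibitors in green, named in the top panel; dotted lines mark 2-fold. In the top panel 5 of the 10 lines lie outside the dotted lines, and in the lower panels all lie between -0.51 and 0.404.

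Other genes of the G1 pathway were followed with a list of 30 genes, 28 of which had a ratio in each pair. The list was chosen with earlier results of these data known, so its counts are a description and not a test. With PHA665752, 14 of the 28 fell past 2-fold and 0 rose, beside 8.03% lower and 13.1% higher over all genes, and the median log2 ratio was -0.86, beside 0.075 over all genes. The 5 S-phase entry genes with a ratio all fell. E2F1 and E2F2, both activator E2Fs, fell by 3.52 and fell by 3.68 on the log2 scale. CDC6, which licenses replication origins, fell by 2.99, MCM2, a subunit of the replicative helicase, fell by 2.401 and PCNA, the sliding clamp, fell by 2.396. CCNA2, the S-phase cyclin, fell by 2.26. CDC25A, the phosphatase that activates CDK2, fell by 2.88, and CDK2 itself fell by 1.89. SKP2, the ubiquitin ligase subunit that targets p27, fell by 1.62, and its cofactor CKS1B fell by 1.75.

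Both kinase partners of the D-type cyclins stayed inside 2-fold with PHA665752. CDK4 stood at -0.23 ± 0.20. CDK6, not counted among the 28 because its probe A_24_P166663 carried an outlier mark on the MET siRNA array, stood at -0.33 ± 0.20. The CDK-activating kinase was also inside 2-fold, with 0.55 for CDK7, -0.63 for CCNH and -0.62 for MNAT1. Among the pocket proteins, RBL1 (p107) fell by 2.08, while RB1 stood at -0.33 and RBL2 (p130) at 0.045. The INK4 inhibitor CDKN2D (p19) fell by 1.09 and the CDK phosphatase CDKN3 fell by 1.32, so these further inhibitors did not share the direction of CDKN1C.

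With MET siRNA 0 of the 28 genes passed 2-fold, beside 2.04% higher and 0.696% lower over all genes. The median was -0.011, beside -0.017 over all genes. The ratios ran from -0.45 for CDC25A to 0.44 for E2F2. Between sc siRNA and DMSO the median was -0.35, beside -0.011 over all genes, 23 of 28 ratios were below 0, beside 51.6% of all genes, and E2F2 alone fell past 2-fold, by 1.11, beside 1.16% of all genes. The sc siRNA level of the S-phase genes, like that of CCNE2, was thus already below DMSO, while CCND1 and CCND3 differed little between the controls.

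**Figure D4:**
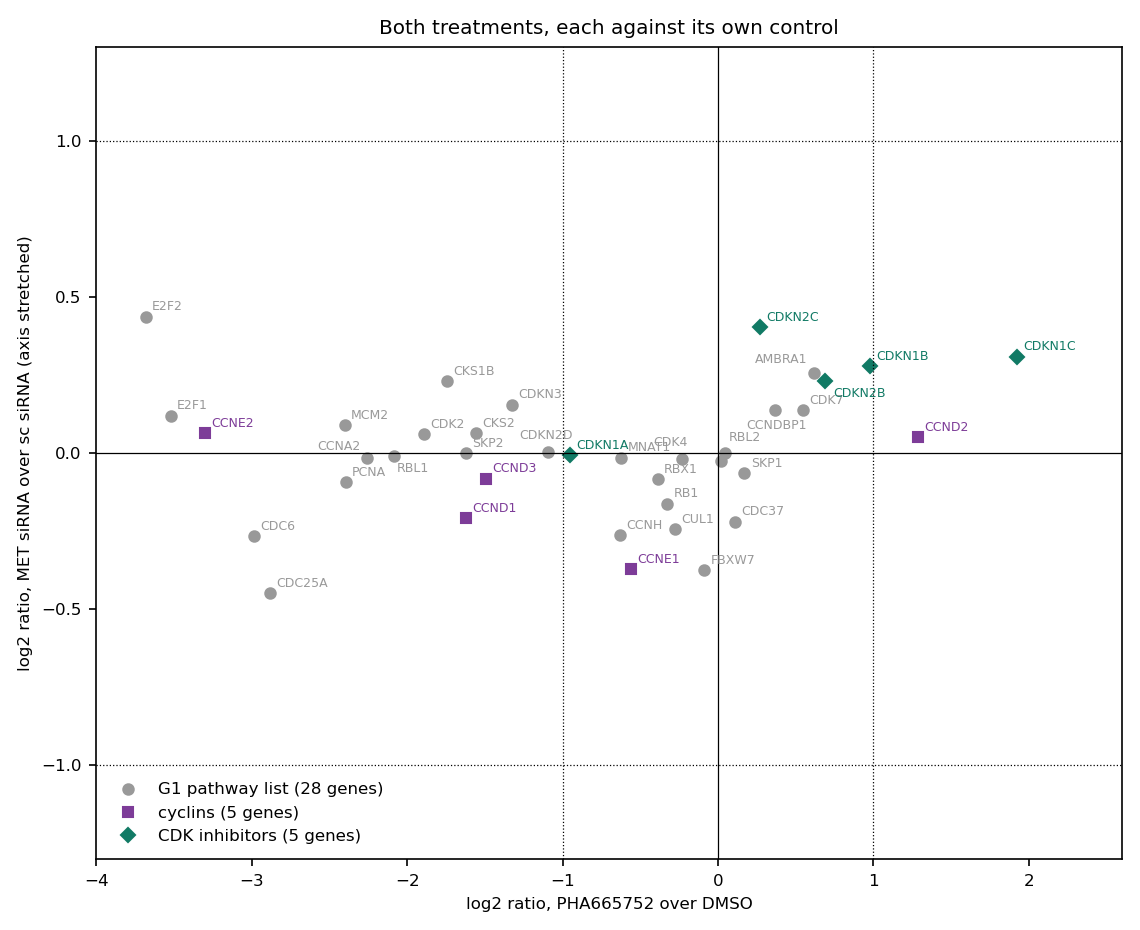
Log2 ratio of PHA665752 over DMSO (horizontal axis) and of MET siRNA over sc siRNA (vertical axis, stretched) for the cyclins (purple squares), the CDK inhibitors (green diamonds) and the G1 pathway list (grey circles; the unlabelled circle near 0 is SERTAD1). Dotted lines mark 2-fold, solid lines 0. Points spread from -3.68 to 1.93 along the horizontal axis and only from -0.45 to 0.44 along the vertical axis.

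The genes whose 3 ratios were most like those of CCNE2, by Euclidean distance on the log2 scale over 13072 genes with all arrays above background, were ORC1 at 0.13, DDIAS at 0.16 and DTL at 0.18. ORC1 is a subunit of the origin recognition complex and DTL a substrate receptor of a ubiquitin ligase that acts on chromatin-bound PCNA. The ORC1 log2 ratio was -3.37 for the inhibitor, -0.028 for MET siRNA over its control and -0.45 for sc siRNA over DMSO. For CDKN1C they were PPFIA2 at 0.079, CARF at 0.084 and TSPYL2 at 0.085, with ratios of 1.95, 1.86 and 1.99 with PHA665752. These distances rest on 3 ratios from 4 arrays and are a description.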

How the data were processed

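Total RNA of Hs746T cells was labelled with Cy3 and hybridised to Agilent human 44K V2 arrays, 1 per condition. Spot values deposited by the authors came from Feature Extraction (11.5.1.1 in the file headers): the processed signal used here is a background-subtracted and detrended linear intensity with no normalization between arrays. The error estimate of each spot was also deposited. Spots with an outlier mark were left out, from 1.69% (sc siRNA) to 5.58% (MET siRNA). Log2 signals were averaged over replicate spots and set relative to the 75th percentile of each array, which was 990.1 for DMSO, 853 for PHA665752, 831 for sc siRNA and 858 for MET siRNA. Where 1 of the compared arrays was not above background a bound was computed, and where neither was, no ratio. Probes were named by accession from the GRCh38.p14 RefSeq table (75.5% of 34127), while the array annotation is on hg19. The brightest probe with a value on each array stood for a gene.

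Ratios were taken for PHA665752 over DMSO, for MET siRNA over sc siRNA and for sc siRNA over DMSO. The 10 genes and all lists were chosen with earlier results of these data known. Named were the 10 genes, a G1 pathway list of 30, marker genes, MET, and the 3 genes most like the member with the largest rise and the largest fall. Alternatives were other scalings (50th percentile, quantile, median of probes well above background), normexp (offset 50, on the median spot signal), other filters and ignored outlier marks. Further alternatives were series matrix values (the processed signals deposited by the authors, put on a log2 scale here) and the median over probes. No spot was saturated (0 marks). On a simulated pair of arrays made from the DMSO array (33770 probes) 200 of 200 changed probes were recovered with 0 false calls. The changes set there were larger than 2-fold, on probes well above background, with noise far below 2-fold and no difference between cultures. The simulation therefore checks the computation only and gives no rate of false calls for the real arrays. Python 3.11.15, numpy 2.4.6, pandas 2.3.3, matplotlib 3.10.9, R 4.3.3 and limma 3.58.1 were used. The number of arrays limits the precision.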

Additional observations from a re-analysis of the deposited data

How the results depend on the processing

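Over 9 alternatives, the number of the 10 genes past 2-fold with PHA665752 lay between 4 and 7, beside 5 with the 75th percentile, and it was 0 throughout with MET siRNA and between the controls. CDKN1A passed 2-fold with the 50th percentile (-1.20), quantile normalization (-1.16) and scaling to the median of probes well above background (-1.05), CDKN1B with quantile normalization (1.08), and CCND2 lost it with normexp (0.98). The median of the 10 genes with PHA665752 was -0.39 with the 50th percentile, and that with MET siRNA was -0.24 when scaled to the median of probes well above background; both follow from a shift of all ratios of the pair, whose all-gene medians were then -0.17 and -0.31. No PHA665752 ratio of the 10 genes changed sign, and of 270 alternative ratios of single genes in the 3 pairs, 248 kept their side of 2-fold, moving by less than the software's error where they lay inside it, and 17 inside it moved by more. Of all genes past 2-fold with PHA665752, 62.0% were higher, but 42.5% with the 50th percentile, where 12.3% of all genes were lower. With MET siRNA 74.5% of the changed genes were higher, and 40.2% when scaled to the median of probes well above background, where the shares of all genes were 1.18% higher and 1.75% lower. Normexp gave 6.73% higher with PHA665752, 0.448% higher and 0.101% lower with MET siRNA, and 1.41% higher and 0.262% lower between the controls. With only probes above background on both arrays 1.24% were higher and 0.258% lower with MET siRNA and 0.624% lower between the controls, and without a filter on dim probes these shares were 3.42% and 2.02% with MET siRNA and 2.28% lower between the controls. The G1 pathway count with PHA665752 was 13 or 14 in these alternatives, and its median was -1.11 with the 50th percentile and, with MET siRNA, -0.31 when scaled to the median of probes well above background; these were run for that list after seeing the data. No paired analysis was possible because each condition has 1 array. Signal over background limits CDKN2B on all arrays and CCNE2 on the PHA665752 array.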
